A study of Homo sapiens with 4 samples.

Results

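PCGF2, MLLT6, CISD3, PIP4K2B, CWC25 and SRCIN1 are neighbours on the long arm of human chromosome 17, within 295.3 kb. They were found by symbol among the 62700 genes counted in each library, and all 6 were matched to 1 identifier. They had been picked for their place and for what they did in these libraries, namely the opposite differences of PCGF2 and MLLT6 between T4A and WT cells and the disagreement of libraries of the same group. The difference between T4A and WT for these 6 genes is therefore given as a description, with no test. Enough counts to enter the fit across all genes were found for 5 of the 6, and CISD3 was the exception.

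The libraries came from HEK293T, a transformed human embryonic kidney line. Cells were transiently transfected with a form of RPB1, the catalytic subunit of RNA polymerase II, that resists α-amanitin, a mushroom toxin that leads to the loss of the cell's own RPB1. WT cells received RPB1 with the wild-type carboxyl-terminal domain (CTD), and T4A cells received RPB1 in which threonine 4 of the CTD heptads was alanine, so that this residue cannot be phosphorylated. Both groups were given the toxin at 2.5 μg/ml from 1 day after transfection, for 48 hours, and each group had 2 RNA-seq libraries. The comparison asks how the transcriptome changes when Thr4 phosphorylation is lost. No untransfected or toxin-free cells were analysed here, so every difference is between 2 transfected, toxin-treated populations, and less RNA per cell cannot be told apart from fewer cells that express a gene.

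The 6 genes code for proteins with unrelated jobs. PCGF2 (also known as MEL18) is a ring finger subunit of Polycomb repressive complex 1 (PRC1), which places ubiquitin on histone H2A and keeps developmental genes silent. Each PRC1 complex holds 1 PCGF protein, and the choice among PCGF1, PCGF2, PCGF3, BMI1, PCGF5 and PCGF6 sets its type. MLLT6 (AF17) is a PHD finger protein first met as a fusion partner of KMT2A in leukaemia, and its relative MLLT10 works with the histone H3 methyltransferase DOT1L. CISD3 is a mitochondrial iron-sulfur protein. PIP4K2B makes phosphatidylinositol 4,5-bisphosphate from phosphatidylinositol 5-phosphate, CWC25 is needed at the catalytic steps of splicing, and SRCIN1 (p140Cap) is an adaptor that restrains the kinase SRC.

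In GRCh38 coordinates from RefSeq, the build to which the reads were aligned, the order along chromosome 17 is as follows. SRCIN1 (ENSG00000277363.5) runs from 38530031 to 38607025 on the minus strand. MLLT6 (ENSG00000275023.5) follows from 38705273 to 38729795 on the plus strand, and CISD3 (ENSG00000277972.2) begins 545 bases after it, from 38730341 to 38735605 on the same strand. PCGF2 (ENSG00000277258.5) lies from 38733898 to 38749792 on the minus strand, so that its 3′ end and that of CISD3 share 1708 bases on opposite strands. The paper states that reads were aligned as unstranded, but not how the counting treated strand or shared parts. It is therefore not known to which of the genes, if any, a read from the shared part was counted. PIP4K2B (ENSG00000276293.5), from 38765691 to 38799556, and CWC25 (ENSG00000273559.5), from 38800441 to 38825321, are both on the minus strand and 884 bases apart. Between the 6 genes lie EPOP, which codes for a partner of Polycomb repressive complex 2 (PRC2), and PSMB3, which codes for a proteasome subunit and sits between PCGF2 and PIP4K2B.

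The 250 bases before the RefSeq start sites of PCGF2 and MLLT6 are shown because these genes differed between T4A and WT in opposite directions and are read from opposite strands. Each is written 5′ to 3′ on the strand of its gene, with every CpG dinucleotide in capitals. The PCGF2 window is chr17:38746629-38746878 on the minus strand and lies inside the gene, since RefSeq's widest span of PCGF2 begins further upstream. The MLLT6 window is chr17:38705023-38705272 on the plus strand, directly before the gene.

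PCGF2: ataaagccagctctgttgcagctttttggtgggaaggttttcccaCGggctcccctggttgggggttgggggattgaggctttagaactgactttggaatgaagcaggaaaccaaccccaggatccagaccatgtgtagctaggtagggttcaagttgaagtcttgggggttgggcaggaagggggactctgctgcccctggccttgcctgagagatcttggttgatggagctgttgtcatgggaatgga

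MLLT6: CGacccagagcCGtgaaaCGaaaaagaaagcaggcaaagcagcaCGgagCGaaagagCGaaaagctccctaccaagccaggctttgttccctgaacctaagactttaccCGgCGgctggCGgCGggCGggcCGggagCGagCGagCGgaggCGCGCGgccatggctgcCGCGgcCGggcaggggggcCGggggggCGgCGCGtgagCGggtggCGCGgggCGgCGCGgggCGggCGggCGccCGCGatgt

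The MLLT6 window is 73.2% G or C and holds 36 CpG dinucleotides, 1.13 times the number its base composition predicts. The PCGF2 window is 54.0% G or C and holds 1, which is 0.06 times the predicted number. Over 34943 RefSeq promoters, windows of the same length had a median G or C content of 58.0% and a median CpG ratio of 0.56. The letters GGGCGG, which are those of a GC box, were found 5 times in the MLLT6 window and not in that of PCGF2, searching both strands, and 42.5% of all promoters held them. Neither window held CCAAT, found in 32.0% of promoters, or TATAAA, found in 10.8%. Of the others with an entry, CISD3 and PIP4K2B were each 83.6% G or C with 8 and 11 GC boxes, and CWC25 was 60.0% G or C with none. These letters describe the windows and show no binding.

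For PCGF2, 174 and 233 fragments were counted in T4A and 22 and 4 in WT. In CPM (counts per 1000000, with library sizes scaled by TMM), this was 7.67 and 12.4 against 0.656 and 0.156. Both T4A libraries were above both WT libraries. The T4A mean of 10.03 ± 3.34 CPM (SD, n = 2) was 24.7 times the WT mean of 0.406 ± 0.353 (SD, n = 2), with a fitted log2 fold change of 4.52 ± 0.39 (standard error). WT replicate 1 had 4.20 times the CPM of WT replicate 2, with an exact 95% counting interval from 1.43 to 16.8. T4A replicate 2 had 1.62 times that of replicate 1, with an interval from 1.32 to 1.98. These intervals cover counting error only, and since disagreement between libraries was among the grounds for picking the genes, they are no test of it.

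MLLT6 had 15 and 13 counts in T4A, against 179 and 18 in WT. Its level was 0.661 and 0.691 CPM in T4A, and 5.34 and 0.703 CPM in WT. Both T4A libraries lay below both WT libraries, but WT replicate 2 exceeded the higher T4A library by a small margin while WT replicate 1 stood far above all others. WT replicate 1 had 7.60 times the CPM of WT replicate 2 (exact 95% counting interval 4.67 to 13.1). The T4A mean was 0.676 ± 0.0213 CPM and the WT mean 3.02 ± 3.28 (SD, n = 2 each), with a fitted log2 fold change of −2.18 ± 0.63. Without WT replicate 1 it was −0.05. The lower level of MLLT6 in T4A therefore rested on 1 WT library, whereas the value of PCGF2 was 5.96 with that same library left out and 3.92 without the other WT library.

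PIP4K2B had 61 and 12 counts in T4A, against 264 and 10 in WT, or 2.69 and 0.638 CPM against 7.87 and 0.390 CPM. The groups overlapped, since WT held both the highest and the lowest value. The means were 1.66 ± 1.45 CPM in T4A and 4.13 ± 5.29 in WT (SD, n = 2 each), and the log2 fold change of −1.31 ± 0.72 became 2.10 without WT replicate 1. The ratio of WT replicate 1 to WT replicate 2 was 20.2 (exact 95% counting interval 10.8 to 42.5). In T4A, replicate 1 had 4.21 times the level of replicate 2 (2.25 to 8.60). PIP4K2B had the widest gap between WT libraries among the 6 genes.

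CWC25 had 22 and 4 counts in T4A, against 15 and 8 in WT, or 0.969, 0.213, 0.447 and 0.312 CPM in that order. The T4A libraries held its highest and its lowest value. The log2 fold change of 0.65 ± 0.81 became −0.84 without T4A replicate 1. SRCIN1 had 4 and 8 counts in T4A, against 19 and 11 in WT, or 0.176 and 0.425 CPM against 0.566 and 0.429 CPM. Its T4A libraries lay below its WT libraries, but replicate 2 of T4A and replicate 2 of WT were closer than the worth of 1 count. The means were 0.301 ± 0.176 against 0.498 ± 0.0969 CPM (SD, n = 2 each). The log2 fold change of −0.75 ± 0.83 stayed negative without any 1 library. CISD3 had 5 and 7 counts in T4A, against 5 and 5 in WT, or 0.220, 0.372, 0.149 and 0.195 CPM, and a fit without the filter on low counts gave 0.74 ± 1.32. At depths where 1 count is worth 0.0298 to 0.0532 CPM, a change in CISD3 was not detectable.

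**Figure D1:**
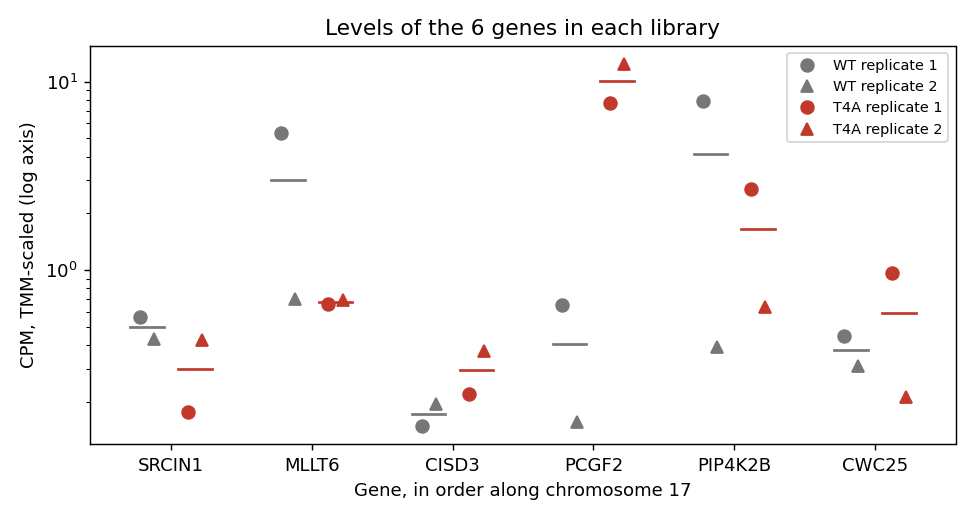
Level of each gene in each library, in CPM on a log axis, with genes in their order along chromosome 17; grey marks WT, red T4A, circles replicate 1, triangles replicate 2 and bars the group mean. PCGF2 shows 7.67 and 12.4 CPM in T4A above 0.656 and 0.156 in WT, and in MLLT6 and PIP4K2B WT replicate 1 stands above the other libraries.

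In the fit across 18139 genes, 10.7% were called higher in T4A and 13.0% lower (edgeR quasi-likelihood test, adjusted p under 0.05). Of the 5 tested genes of the locus, 1 (PCGF2) passed in the direction of a rise and 1 (MLLT6) in that of a fall, and nothing is read from these counts because the genes were picked on this contrast. Both T4A libraries were above both WT libraries for 28.5% of all genes tested and below for 30.5%. Among the 6 genes these numbers were 2 (PCGF2 and CISD3) and 2 (MLLT6 and SRCIN1), and the other 2 overlapped. For CISD3 and SRCIN1 the nearest T4A and WT libraries were closer than the worth of 1 count.

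The libraries of a group rarely disagreed as they did for this locus. On the scale of log2 CPM with a prior count of 2, the WT libraries were more than 4-fold apart for 0.689% of all genes tested and the T4A libraries for 2.08%. MLLT6 (6.93-fold) and PIP4K2B (16.9-fold) were among the former, and no gene of the locus was among the latter, where PIP4K2B reached 3.86-fold and CWC25 3.59-fold. This depends on the prior count. Without it, T4A replicate 1 had 4.21 times the level of replicate 2 for PIP4K2B and 4.56 times for CWC25. For PCGF2 the ratio of WT replicate 1 to WT replicate 2 was then 4.20. Over all genes, the median gap was 0.162 on the log2 scale in WT and 0.206 in T4A. Disagreement between libraries was part of how the genes were picked, so this too is a description.

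The 6 genes did not fall or rise together. Their summed counts were 281 and 277 in T4A, against 504 and 56 in WT, so that WT replicate 2 had the least. PCGF2 made up 61.9% of that sum in T4A replicate 1 (exact 95% interval 56.0 to 67.6) and 84.1% in T4A replicate 2 (79.3 to 88.2). In WT its share was 4.37% (2.76 to 6.53) and 7.14% (1.98 to 17.3). The share of MLLT6 was 5.34% and 4.69% in T4A, and 35.5% and 32.1% in WT. These shares add up to the whole, so a larger share of PCGF2 lowers that of MLLT6, and they restate the contrast on which both genes were picked. PIP4K2B took 21.7% and 4.33% in T4A and 52.4% and 17.9% in WT, and its shares did overlap.

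**Figure D2:**
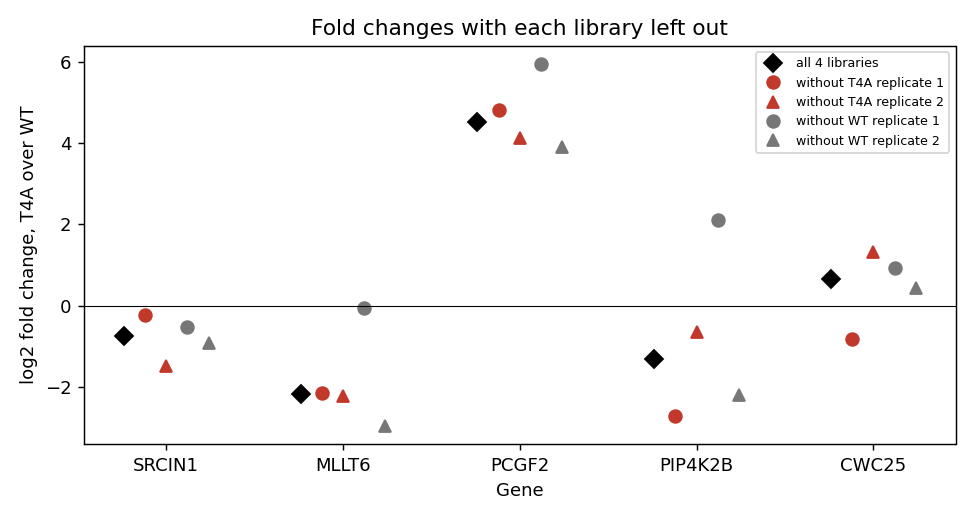
Fitted log2 fold change of T4A over WT for the 5 tested genes with all 4 libraries (black diamonds) and with each library left out (red for a T4A library, grey for a WT library). PCGF2 stays between 3.92 and 5.96, MLLT6 moves from −2.18 to −0.05 without WT replicate 1, and PIP4K2B and CWC25 change sign.

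The libraries held 23465029 and 19257217 counts in T4A, against 33063535 and 24695291 in WT. Libraries of the same group differed beyond sampling noise (chi-square over degrees of freedom 4.56 in T4A and 5.66 in WT). They were therefore not 1 library sequenced again, but this cannot tell separate cultures from separate preparations of the same material. The paper calls them biological replicates, but nothing in the labels says that they came from separate cultures. Each p-value therefore rests on a spread that may be technical. POLR2A, the gene of RPB1, was at 5428 ± 70.5 CPM in T4A and 3268 ± 713 in WT (log2 fold change 0.73 ± 0.08, adjusted p = 7.23e-07, edgeR), and a count per gene does not tell the transfected from the endogenous form, nor T4A from WT. Of the markers of HEK293T, VIM was at 269 and 234 CPM, CDH2 at 53.6 and 67.0 and KRT8 at 23.4 and 15.8 (T4A and WT means). NEFM, PAX2 and KRT18 were lower, at 3.07 to 12.9 CPM. The leukocyte markers PTPRC and CD3E, the endothelial marker VWF and the muscle marker DES were at no more than 0.187 CPM in either group's mean. COL1A1 was at 28.3 and 32.0 CPM, COL3A1 at 3.91 and 4.26 and ALB at 1.18 and 0.845, and PECAM1 was not matched to an identifier.

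Within 500 kb on either side, and between the 6 genes, 21 other genes were matched to 1 identifier each and 11 of them were tested. Of these, 2 passed the test, both higher in T4A and both ribosomal protein genes. This count is to be read beside the shares over all genes tested, 10.7% called higher and 13.0% lower. RPL23, a large-subunit protein whose gene follows CWC25, was at 678 ± 17.8 CPM in T4A and 490 ± 12.7 in WT (SD, n = 2 each, log2 fold change 0.47 ± 0.04, adjusted p = 1.95e-08). RPL19, also of the large subunit, was at 1560 ± 17.1 and 1152 ± 10.8 CPM (0.44 ± 0.03, adjusted p = 3.48e-09). Both calls held without any 1 library. The counts of RPL23 were 15094 and 12983 in T4A, against 16735 and 12320 in WT. RPL23, from 38847860 to 38853721 on the minus strand, had replicates within 0.053 of each other on the log2 scale in T4A.

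The other 9 tested neighbours did not pass, and all but PLXDC1 and RDM1P5 had a T4A mean below the WT mean. LASP1, an actin-binding protein gene, was at 27.4 against 30.7 CPM (log2 fold change −0.16, adjusted p = 0.25), and the F-box protein gene FBXL20 at 14.1 against 16.8 (−0.26, adjusted p = 0.167). SOCS7, a suppressor of cytokine signalling, was at 1.44 against 2.0 (−0.47, adjusted p = 0.461), LASP1NB at 1.90 against 2.56 (−0.43, adjusted p = 0.434) and CACNB1, a calcium channel subunit, at 3.42 against 3.79 (−0.15, adjusted p = 0.761). STAC2 (−0.19), PLXDC1 (0.10) and the pseudogene RDM1P5 (0.40, adjusted p = 0.104) did not pass either. All of these had T4A libraries within 2-fold of each other.

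PSMB3 was the exception among the tested neighbours. This gene of a 20S proteasome β subunit had 31 and 305 counts in T4A, against 379 and 255 in WT. The T4A libraries enclosed the WT libraries, and T4A replicate 1 was far below the other 3. The means were 8.79 ± 10.5 CPM in T4A and 10.6 ± 0.951 in WT (SD, n = 2 each), and the log2 fold change was −0.31 ± 0.50 (adjusted p = 0.732, edgeR). Without T4A replicate 1 it was 0.61 and passed the test, and without T4A replicate 2 it was −2.96 and passed in the other direction. The low library of PSMB3 (T4A replicate 1) was not the low library of PIP4K2B (WT replicate 2), although these genes are 1465 bases apart. Of the neighbours with too few counts for the test, EPOP had 9, 5, 6 and 10 counts (T4A replicates, then WT), ARHGAP23 15, 0, 8 and 6, MRPL45 4, 1, 2 and 5, and GPR179 0, 0, 9 and 0.

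The low and scattered counts belonged to a longer stretch that ended after CWC25. This stretch was outlined after the counts were seen, by a range of Ensembl identifier numbers chosen for the purpose. Its ends, 35918080 and 38825321 (2.91 Mb), are those of the outermost matched protein-coding genes with such identifiers within 3500 kb of the locus. All 45 matched protein-coding genes between these ends have one, numbered from 273513 to 278845. That the 21 genes before and the 132 after it have none follows from how the ends were set. Of the 45 genes, 37 had a mean under 1 CPM, and DDX52, a helicase gene, was the highest at 11.1 CPM (259 and 198 counts in T4A, 429 and 248 in WT). Leaving the 6 genes out, 34 of 39 were under 1 CPM, against 38.7% of the 19933 other protein-coding genes. Low genes were also common on either side, with 14 of 21 under 1 CPM before the stretch and 79 of 132 after it. Beyond CWC25, 38 of the 132 genes were at 10 CPM or more, up to 1356 CPM in RPL19, and before the stretch 4 of 21 were, up to 388 CPM in AP2B1. TAF15, an RNA-binding protein gene just before the stretch, was as low as genes within it, at 0.156 CPM.

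**Figure D3:**
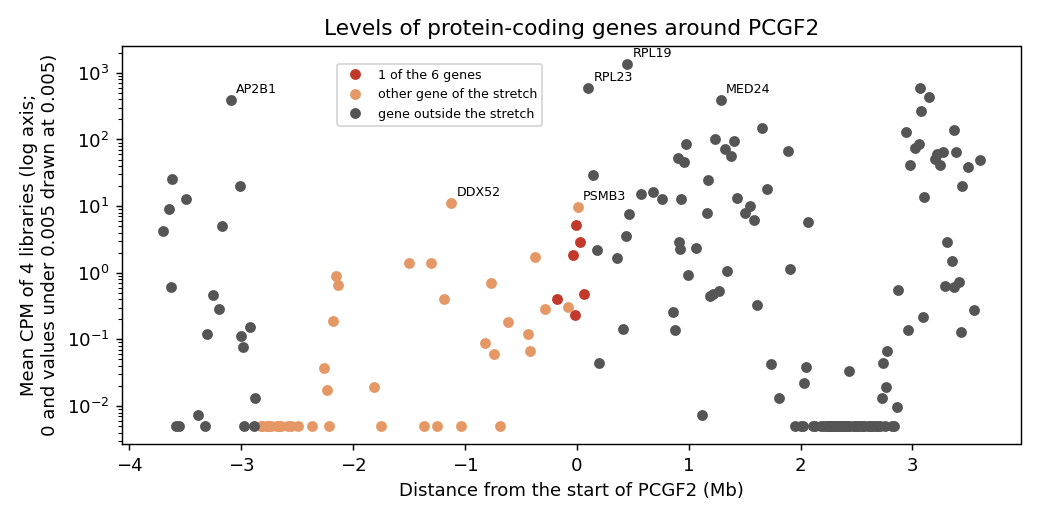
Mean level over the 4 libraries of each protein-coding gene (log axis, CPM) against its distance from the start of PCGF2 in Mb, with the 6 genes in red, other genes of the stretch in orange and genes outside it in grey. Within the stretch only DDX52 reaches 10 CPM, and beyond CWC25 levels rise to 584 CPM in RPL23 and 1356 CPM in RPL19.

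Gaps between libraries were more frequent within the stretch than outside it. Those gaps were already known when the stretch was outlined, so this is a description and no separate support for its ends. Within the stretch, 7 of 14 tested genes were more than 4-fold apart in at least 1 group, and 5 of 9 with the 6 genes left out. After it none of 61 was, before it 1 of 9 was (FNDC8), and among the 13584 other tested protein-coding genes 1.38% were. The genes compared were not matched for level, and how many gaps are found depends on how low counts are treated. The libraries involved differed from gene to gene. DHRS11, a reductase gene, had 52 and 1 counts in T4A, against 19 and 16 in WT, and MRM1, a mitochondrial rRNA methyltransferase gene, had 32 and 1 in T4A, against 38 and 0 in WT. ACACA, which codes for the first enzyme of fatty acid synthesis, had 49 and 8 in T4A, against 63 and 30 in WT, and TADA2A, a histone acetyltransferase adaptor gene, had 7 and 29 in T4A, against 50 and 59 in WT. DDX52 and SOCS7, by contrast, had libraries within 1.32-fold in both groups.

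**Figure D4:**
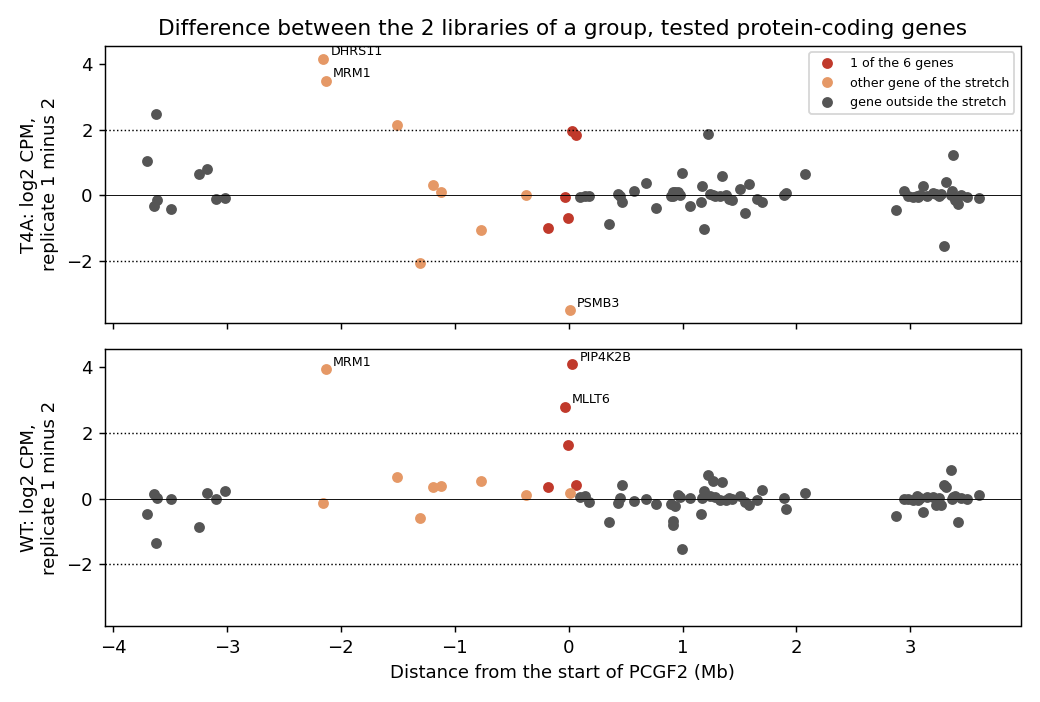
Difference between the libraries of a group (log2 CPM, replicate 1 minus replicate 2) for tested protein-coding genes against distance from the start of PCGF2 in Mb, T4A above and WT below, with dotted lines at 4-fold. Of the 14 tested genes of the stretch (red and orange), 7 pass a dotted line in at least 1 group, and of the 61 beyond it none does.

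Whether the exons of these genes match more than 1 place in the genome was also measured. Windows of 150 bases were taken every 50 bases along the exons and mapped to the GRCh37 primary chromosomes, and another place counted where at least 90% of the bases matched at 95% identity or more. PCGF2 had such a place for 0 of 46 windows, PIP4K2B for 0 of 87, CISD3 for 0 of 55 and PSMB3 for 0 of 10. CWC25 had one for 4 of 49 (8.2%), MLLT6 for 27 of 224 (12.1%) and SRCIN1 for 28 of 173 (16.2%). As a control, TBC1D3E, of a gene family with many near-identical copies on this arm, had one for 15 of 15. The alignment used by the authors was to GRCh38, and which sequences their reference held beyond the chromosomes, and how reads with several places were treated, was not stated in the labels or methods. Its part in the counts of this stretch was not tested.

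Genes that work with the 6 proteins were listed. All but EPOP of the PRC2 list, which lies between the 6 genes, are elsewhere in the genome. No listed gene that passed the filter on low counts was more than 4-fold apart between libraries of a group. Levels between genes are compared below in CPM per kb of exons, as means over all 4 libraries. Listed genes were called by the same edgeR fit, with p-values adjusted over all 18139 genes, whose median log2 fold change was −0.01 and of which 10.7% were called higher and 13.0% lower, the shares beside which each list's counts are to be read.

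For PCGF2, the list held 26 PRC1 subunits, of which 25 were tested. None rose and 8 fell, with a median log2 fold change of −0.20. PHC1, a subunit that lets PRC1 form clusters, fell from 39.7 ± 0.411 to 25.2 ± 1.93 CPM (SD, n = 2 each, log2 fold change −0.66 ± 0.09, adjusted p = 2.71e-05). DCAF7 (−0.47), SCMH1 (−0.45) and the PCGF2 relative PCGF5 (−0.35, adjusted p = 0.0053) also fell. The relatives BMI1 (−0.11, adjusted p = 0.493), PCGF1 (−0.27, adjusted p = 0.465), PCGF3 (−0.24, adjusted p = 0.109) and PCGF6 (0.01, adjusted p = 0.976) did not pass. Without WT replicate 1 the count of 8 dropped to 3, and PHC1 and DCAF7 passed without any 1 library. RING1, a catalytic subunit of PRC1 outside the rule for named genes and named after its values were seen, had 0 counts in all 4 libraries. So did DHX16 of the spliceosome list, also on chromosome 6 and named on the same grounds, and the cause was not tested.

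At 1.49 CPM per kb, PCGF2 was below BMI1 (8.36), PCGF5 (5.34), PCGF3 (4.33), PCGF1 (3.50) and PCGF6 (3.16). Its T4A libraries, at 2.18 and 3.53 CPM per kb, came near PCGF6 and PCGF1, and its WT libraries, at 0.187 and 0.0445, were far below every relative. The PRC2 list had 11 of 13 tested, with 1 higher and 3 lower and a median log2 fold change of 0.02. The methyltransferase gene EZH1 (−0.70 ± 0.12, adjusted p = 0.000285), LCOR (−0.58) and the histone chaperone gene RBBP4 (−0.28) fell, and PHF19, which guides PRC2 to its targets, rose (0.44, adjusted p = 0.00283) but did not pass when WT replicate 2 was left out (adjusted p = 0.0704).

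**Figure D5:**
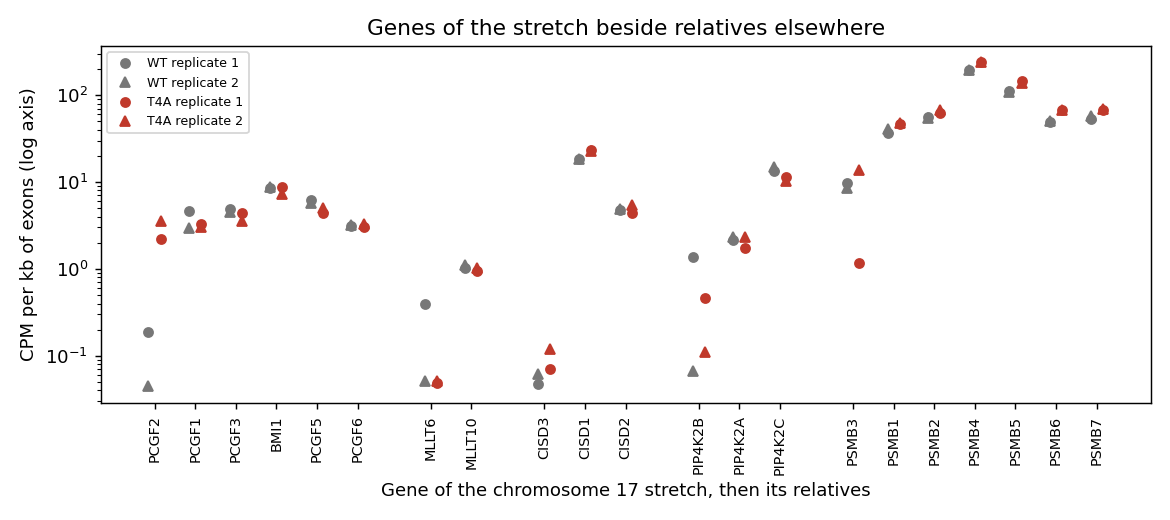
Level per length (CPM per kb of exons, log axis) in each library for PCGF2, MLLT6, CISD3, PIP4K2B and PSMB3, each followed by relatives coded elsewhere in the genome. The 4 libraries of each relative lie close together, whereas those of PCGF2, MLLT6, PIP4K2B and PSMB3 are spread, and CISD3 lies far below CISD1 and CISD2.

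For MLLT6, all 11 listed partners of DOT1L and KMT2A were tested, with 2 higher, 2 lower and a median log2 fold change of −0.15. KMT2A, the methyltransferase to which MLLT6 is fused in leukaemia, fell from 21.02 ± 1.52 to 12.3 ± 1.59 CPM (SD, n = 2 each, −0.78 ± 0.13, adjusted p = 0.000137), and AFF4, a scaffold of the super elongation complex, fell by 0.60 on the log2 scale. Both calls held without any 1 library. MLLT1 (0.29) and MEN1 (0.26, adjusted p = 0.0456) rose. MLLT1 lost its call without T4A replicate 2 or WT replicate 2 (adjusted p up to 0.107), and MEN1 without T4A replicate 1 or WT replicate 1 (up to 0.431). The closest relative, MLLT10, did not pass (−0.12, adjusted p = 0.684), and at 1.02 CPM per kb it was above MLLT6 at 0.136.

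For CISD3, 14 of 15 genes of its relatives and of iron-sulfur cluster assembly were tested. Of these 7 rose and none fell, with a median log2 fold change of 0.32. GLRX5, a glutaredoxin that passes clusters on, rose from 142 ± 0.192 to 184 ± 1.12 CPM (SD, n = 2 each, 0.38 ± 0.05), LYRM4 by 0.49, the relative CISD1 by 0.33 (adjusted p = 0.00255) and the scaffold gene ISCU by 0.30. CISD2 did not pass (0.03, adjusted p = 0.883). Without WT replicate 2 the count of 7 dropped to 4, and ISCU was among the calls lost (adjusted p = 0.0544). CISD1 was at 20.8 and CISD2 at 4.89 CPM per kb, against 0.0751 for CISD3. The methods do not state how fragments from the part that CISD3 shares with PCGF2 were counted, which limits this comparison.

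For PIP4K2B, all 10 listed phosphoinositide kinases were tested. None rose and 5 fell, with a median log2 fold change of −0.21. PI4KA, which makes phosphatidylinositol 4-phosphate at the plasma membrane, fell from 321 ± 14.7 to 261 ± 7.95 CPM (SD, n = 2 each, −0.30 ± 0.05, adjusted p = 4.98e-05) and kept its call without any 1 library. The relative PIP4K2C fell by 0.37 (adjusted p = 0.00512), PIP5K1A by 0.32 and PI4K2B by 0.23, and without WT replicate 2 only PI4KA of the list passed as lower. PIP4K2A did not pass (−0.16, adjusted p = 0.566). Per kb, PIP4K2C was at 12.6 CPM, PIP4K2A at 2.14 and PIP4K2B at 0.501.

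For CWC25, 18 of 20 listed proteins of the catalytic spliceosome were tested, with 4 higher, 1 lower and a median log2 fold change of 0.13. BUD31 (0.41), ISY1 (0.46) and CTNNBL1 (0.31) rose and the helicase gene AQR fell (−0.50 ± 0.13, adjusted p = 0.00614). The 5 calls among 18 genes were near the share called over all genes, and no call of this list held without each library, and none of its genes was called higher without WT replicate 2. PRPF8, the core protein of the spliceosome, named here after its values were seen, had 176 and 2 counts in T4A, against 5 and 5 in WT and did not pass the filter. For SRCIN1, all 12 genes of SRC signalling at adhesions were tested, and none rose and 3 fell, with a median of −0.22. TLN1, which links integrins to actin, fell by 0.21 and the SRC-family kinase gene YES1 by 0.44 on the log2 scale, and both calls held without any 1 library. PXN fell by 0.26 with a call that was lost without T4A replicate 1 or either WT library (adjusted p up to 0.262). CRK was at −0.87 (adjusted p = 0.0553). SRC itself was at 9.54 and 9.40 CPM (T4A and WT).

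PSMB3 was set beside the 13 other listed subunits of the 20S proteasome, of which 12 were tested. Of these 10 rose and none fell, with a median log2 fold change of 0.26. PSMB4 rose from 414 ± 4.05 to 509 ± 0.848 CPM (SD, n = 2 each, 0.30 ± 0.04) and PSMA7 (0.37), PSMB5 (0.36) and PSMB6 (0.43) rose too. The listed subunits had a median of 42.8 CPM per kb, against 8.31 for PSMB3. PSMB3 was not the lowest, since PSMA6 was at 0.273 and PSMA2, which was not tested, at 0.0139. All other listed subunits were above PSMB3, with PSMA5 the nearest at 8.75. These 3 genes were named after their values were seen.

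The nearest profiles over the 4 libraries were looked for among genes elsewhere. Likeness was measured as the Euclidean distance between log2 CPM profiles, each centred on its own mean, over the 4 libraries and among the 12232 protein-coding genes whose mean reached 1 CPM. With 4 points per profile, a near match rests on few values and is given as a description. Nearest to PCGF2 were STX11, a syntaxin gene (distance 1.55), with 84 and 82 counts in T4A, against 2 and 3 in WT, the heat shock gene HSPA6 (1.68), with 644 and 437 against 22 and 24, and the peroxisomal reductase gene DECR2 (2.13), with 94 and 166 against 0 and 1. These are on chromosomes 6, 1 and 16.

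Nearest to MLLT6 were ITPK1, an inositol phosphate kinase gene (distance 0.442), with 76 and 45 counts in T4A, against 663 and 89 in WT, TFPT (0.738), with 9 and 13 against 142 and 8, and NAP1L4, a histone chaperone gene (1.05), with 234 and 260 against 1215 and 252. Each was high in WT replicate 1 alone. Nearest to PIP4K2B were YTHDC1, a reader of N6-methyladenosine (0.733), with 51 and 5 counts in T4A, against 165 and 9 in WT, NAPRT (1.05), with 41 and 18 against 146 and 10, and the ribonuclease inhibitor gene RNH1 (1.20), with 66 and 24 against 164 and 16. Like PIP4K2B, these were higher in replicate 1 than in replicate 2 of both groups, with WT replicate 1 the highest. The numbers of the replicates did not pair the libraries over all genes, where the gap between the T4A libraries and that between the WT libraries correlated at −0.004 across genes.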

How the data were processed

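RNA of HEK293T cells was sequenced as paired reads, in 2 T4A and 2 WT libraries. Per the labels and the methods of the study, the authors trimmed reads with Trimmomatic 0.38, aligned them to hg38 with HISAT2 2.2.1 and counted fragments per gene with featureCounts 2.0.1. The deposited values are raw counts per gene, of 62700 identifiers in each library, with no normalization. Gene names, exon lengths and biotypes came from the GENCODE release of the GRCh37 reference at hand, coordinates and promoter windows from RefSeq (GRCh38.p14), in which 5 of the 6 genes had a window and SRCIN1 was named only.

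Counts were filtered (filterByExpr), scaled by TMM and fitted with edgeR 4.0.16 in R 4.3.3 (quasi-likelihood test, Benjamini-Hochberg adjustment, threshold 0.05). Each standard error was obtained as |log2 fold change| over the root of its F statistic. The fit was first tested on simulated data. Alternatives were DESeq2 1.42.0, other scalings, no filter, each library left out and the replicate number as a block. Windows were mapped with minimap2 2.31-r1302. The named genes were the 6 genes, POLR2A, neighbours of at least 1 CPM, up to 4 genes of each list by p-value with the relatives of the 6, and the 3 nearest profiles. The 6 genes and all lists were chosen with earlier results of these data known. Depth was 19257217 to 33063535 counts per library.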

Additional observations from a re-analysis of the deposited data

How the results depend on the processing

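Leaving out each library in turn, with a lone library assumed to vary like the other group, gave log2 fold changes from 3.92 to 5.96 for PCGF2, −2.97 to −0.049 for MLLT6, −2.72 to 2.10 for PIP4K2B, −0.84 to 1.33 for CWC25 and −1.48 to −0.24 for SRCIN1. The number of neighbours called ranged from 2 to 4 (4 without T4A replicate 1), that of listed genes from 29 to 48 (46 with all libraries, 29 without WT replicate 2) and that of all genes from 3078 to 4619 (4286 with all libraries). A prior count of 0.5 raised the genes more than 4-fold apart in either group from 475 to 716, and one of 5 lowered them to 140. Upper quartile scaling moved the split of calls from 1935 higher and 2351 lower to 2690 and 1718, and library totals to 1352 and 2987, while the 5 fitted genes of the locus kept their signs. With the replicate number as a block, PCGF2 was at 4.49 and MLLT6 at −1.79, 4444 genes were called, and the pairing was not supported by the correlation of −0.004. CISD3 could be fitted only without the filter. The causes were not tested. With totals of 19257217 to 33063535 counts, 1 count is worth 0.0298 to 0.0532 CPM, which limits what can be seen in CISD3, SRCIN1 and CWC25.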
